A study of Mus musculus with 12 samples.

Results

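A set of genes usually read as leukocyte genes was followed in BRAF-mutant mouse liver cancer cell lines treated with a BRAF inhibitor. They are 9 of the 47729 genes in the count tables. Cd53, Mctp2, Mrc1, Mcpt8 and Cytip were picked for their fall with PLX4720 in these data, and Ptprc, Lcp1, Cd14 and Csf1r were added as controls for leukocyte content. The values of PLX4720 against DMSO for the 5 picked genes are therefore a description, and no test of that contrast is given for them. The label "lowered" covers Cytip only in the metastasis lines, since its level went the other way in the primary lines.

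RNA was sequenced from 6 cell lines in 12 libraries, 1 with DMSO (the solvent) and 1 with 2 µM PLX4720 per line, both at 48 h. Liver tumours gave the lines T1, T2 and T3, and metastases in lymph nodes gave M1, M2 and M3. Every line is labelled BRAFV600E with p53 KO, so the DMSO controls carry both lesions too. The design text describes mouse models in which BRAFV600E is switched on in hepatocytes only, with Trp53 or Cdkn2a deleted, and it does not say which line came from which model. PLX4720 is a kinase inhibitor made against BRAFV600E, the mutant that keeps the ERK pathway on. The replicates are cell lines, 3 per site, and T3, M2 and M3 share a number in their deposited names, so it is not known whether they came from separate animals. The p-values for PLX4720 against DMSO measure how far the change within a line varied between lines. Those for the sites measure the spread of levels between lines. In bulk RNA, fewer cells of a type and less RNA per cell cannot be told apart.

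CD53 is a tetraspanin, a small membrane protein that organises other receptors, and it is known from the surface of most white blood cells. MCTP2 has C2 domains and membrane-spanning segments, and sits in endoplasmic reticulum membranes. The mannose receptor MRC1 (CD206) takes up glycoproteins in macrophages and in the sinusoidal endothelium of the liver. MCPT8 is a serine protease of mouse basophil granules, and CYTIP binds cytohesins, which activate ARF GTPases, in lymphocytes and dendritic cells. Among the controls, Ptprc encodes CD45, the phosphatase found on nearly all white blood cells, and Lcp1 encodes L-plastin, an actin-bundling protein of the same cells. CD14 is a co-receptor for bacterial lipopolysaccharide on monocytes and macrophages, and CSF1R is the receptor that macrophages need for survival.

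Between 31992512 and 39288748 fragments were counted per library. The T3 library with PLX4720 had a mitochondrial share of 3.67%, against 0.189% to 0.712% elsewhere. The labels call all lines hepatocellular carcinoma. Hnf4a, a transcription factor that defines hepatocytes, had 4623 to 9944 fragments in the primary libraries and 0 to 7 in the metastasis libraries. Alb, the albumin gene, had 5 to 591 fragments in the primary libraries and 0 in all 6 metastasis libraries.

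The genes lie on several chromosomes (GRCm38, coordinates from the count tables). Cd53 is on chromosome 3, 106759921 to 106790149, minus strand. Mctp2 is on chromosome 7, 72077830 to 72306608, minus strand. Mrc1 is on chromosome 2, 14229392 to 14332057, plus strand. Mcpt8 is on chromosome 14, 56082166 to 56085216, minus strand. Cytip is on chromosome 2, 58129137 to 58195532, minus strand. Ptprc is on chromosome 1, 138062861 to 138175708, and Lcp1 on chromosome 14, 75131101 to 75230842.

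Because all 5 picked genes were lower with PLX4720 in M1 and M3, the 250 bases before their start sites were read for 4 short motifs, on both strands. Windows came from RefSeq on GRCm38.p6, and 7 of the 9 genes were read. The motifs were AGGAAG (an ETS core of the PU.1 type), CCGGAA (the common ETS core), TGANTCA (AP-1) and TGTGGT (RUNX). Of all 32851 RefSeq promoter windows of that length, 29.5% held AGGAAG, 12.0% CCGGAA, 6.75% TGANTCA and 14.0% TGTGGT. Those of Cd53, with the deepest fall of the set, and of Mrc1 and Cytip, the pair whose levels were opposite between primary and metastasis lines, are printed. Each runs 5′ to 3′ on the gene's own strand up to the base before the start, with motif letters in capitals, whichever strand they match.
Cd53, chr3:106790150-106790399, minus strand: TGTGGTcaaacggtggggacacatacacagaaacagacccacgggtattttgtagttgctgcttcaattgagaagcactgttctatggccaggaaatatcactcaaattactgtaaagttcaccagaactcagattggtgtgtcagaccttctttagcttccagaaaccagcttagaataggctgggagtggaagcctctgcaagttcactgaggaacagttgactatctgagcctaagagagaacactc
Mrc1, chr2:14229164-14229413, plus strand: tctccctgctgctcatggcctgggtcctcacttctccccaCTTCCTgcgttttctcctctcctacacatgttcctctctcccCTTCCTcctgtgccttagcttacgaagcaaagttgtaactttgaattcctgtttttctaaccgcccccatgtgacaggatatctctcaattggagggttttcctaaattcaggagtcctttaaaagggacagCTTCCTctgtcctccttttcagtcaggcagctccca
Cytip, chr2:58160123-58160372, minus strand: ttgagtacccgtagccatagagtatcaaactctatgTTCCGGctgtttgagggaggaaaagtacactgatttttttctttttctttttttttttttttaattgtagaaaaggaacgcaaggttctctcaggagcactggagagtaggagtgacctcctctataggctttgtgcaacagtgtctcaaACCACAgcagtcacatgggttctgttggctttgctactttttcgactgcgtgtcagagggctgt
The Cd53 window held 1 TGTGGT, at 250 bases before the start. The Mrc1 window held AGGAAG 3 times, at 210, 168 and 36 bases before the start, each on the opposite strand. The Cytip window held 1 CCGGAA at 214 bases and 1 TGTGGT at 64 bases, both on the opposite strand, and this RefSeq start lies inside the longer Cytip gene model of the count tables. In the windows not shown, Mctp2 held AGGAAG 2 times and Mcpt8 held TGTGGT 2 times. Of the controls, Ptprc held AGGAAG 3 times before 1 start site and 1 time before another, and Lcp1 held none of the motifs. The Ptprc windows overlap, and the 1 match before the second start is among the 3 before the first. None of the 4 motifs was in the windows of all 5 picked genes, and TGANTCA was in none of them. These matches are letters in a short window and not evidence of a bound factor.

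Cd53 fell to 8 fragments or fewer in T1, T2, T3 and M2, to 21 in M3, and least far in M1. With DMSO, Cd53 had 199, 52, 109, 1051, 210 and 449 fragments in T1, T2, T3, M1, M2 and M3. With PLX4720 it had 7, 2, 8, 289, 1 and 21 in the same order. The PLX4720 value was the lower in each of the 6 lines, although M1 with PLX4720 stayed above T1, T2, T3 and M2 with DMSO. Scaled to library size as CPM, the group means were 3.22 ± 2.12 with DMSO and 0.150 ± 0.0845 with PLX4720 in primary lines (SD, n = 3). In metastasis lines they were 16.9 ± 13.0 and 2.85 ± 4.39 (SD, n = 3). The ratio in M1 was 3.96-fold lower with a counting interval up to 4.53-fold, against 30.3-fold lower in T1, 12.8-fold in T3 and 21.3-fold in M3. T2 and M2 rest on 2 and 1 fragments with PLX4720, and their ratios to DMSO were 0.0398 (95% counting interval 0.00470 to 0.151) and 0.00485 (0.000122 to 0.0273). The fitted log2 change over all 6 lines was -3.93 ± 0.49 (SE), rank 2 from the most lowered of 16555 genes. Without M1 the change in metastasis lines went from -3.50 to -5.02.

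Mctp2 was lower with PLX4720 in T1, T3 and all metastasis lines, and rested on few fragments in T2. Its fragments with DMSO were 113, 8, 92, 372, 257 and 249 in T1, T2, T3, M1, M2 and M3, and 4, 5, 20, 20, 17 and 10 with PLX4720. T2 stood apart, with few fragments in either library and a ratio of 0.647 whose counting interval (0.166 to 2.24) includes no change. The other 5 lines were 4.33-fold to 30.1-fold lower. Metastasis lines started at 8.65 ± 2.12 CPM and ended at 0.451 ± 0.140 CPM (SD, n = 3), with no overlap between their DMSO and PLX4720 libraries. The fitted log2 change was -3.51 ± 0.35 (SE) over all lines, rank 11 from the most lowered gene. In primary lines it was -2.76, and -1.73 without T1.

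A non-coding gene lies inside Mctp2 on the other strand. This gene, Gm36696 (chromosome 7, 72110761 to 72113456), was singled out after its values were seen. Its exons share 0 bases with the Mctp2 exons, but the authors counted without a strand option, so fragments from Mctp2 introns there and from Gm36696 cannot be told apart. It had 30, 1, 9, 65, 56 and 43 fragments with DMSO in T1, T2, T3, M1, M2 and M3, and 0, 0, 2, 5, 7 and 7 with PLX4720. The fall of Gm36696 was -3.57 ± 0.46 in log2 (edgeR adjusted p = 0.00109), beside -3.51 for Mctp2, and it ranged from -5.02 to -2.61 over the alternatives.

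Mrc1 was a gene of the primary lines and fell in all of them. Mrc1 had 302, 1257, 1574, 20, 10 and 74 fragments with DMSO in T1, T2, T3, M1, M2 and M3. With PLX4720 it had 27, 205, 330, 6, 0 and 5. The primary lines were 11.9-fold, 5.93-fold and 4.49-fold lower, from 27.0 ± 16.5 to 5.03 ± 4.08 CPM (SD, n = 3). The primary ranges still overlapped, because T3 with PLX4720 stood above T1 with DMSO. M2 had 0 fragments with PLX4720 and was at least 3.27-fold lower, taking 3 fragments per library as the limit that a count of 0 allows. The fitted change was -2.92 ± 0.31 on the log2 scale over all lines, rank 28.

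Mcpt8 showed the most even fall of the 5 in the primary lines. It had 86, 271, 627, 45, 1 and 282 fragments with DMSO and 19, 44, 95, 18, 0 and 23 with PLX4720, in the order T1, T2, T3, M1, M2 and M3. The primary lines were 4.82-fold, 5.95-fold and 6.22-fold lower. M1 was 2.72-fold and M3 12.2-fold lower, and no fold is given for M2, which had 1 fragment with DMSO and 0 with PLX4720. The fitted change was -2.61 ± 0.27 on the log2 scale, rank 42. In metastasis lines it was -2.70, -3.60 without M1 and -1.53 without M3. Mcpt8 lies in a cluster of similar protease genes, so fragments may have been assigned between near copies by the authors' settings.

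Cytip ran in opposite directions at the 2 sites. Cytip had 3254, 1399 and 1793 fragments with DMSO in M1, M2 and M3, and 438, 98 and 161 with PLX4720. In T1, T2 and T3 it had 27, 5 and 1 with DMSO and 143, 5 and 10 with PLX4720. All 3 metastasis lines were lower, by 8.10-fold, 14.0-fold and 11.1-fold, from 63.6 ± 29.5 to 6.54 ± 4.79 CPM (SD, n = 3). T1 was 4.97 times higher with PLX4720 (counting interval 3.28 to 7.80), T2 was level at a ratio of 1.03 (0.238 to 4.50), and T3 rests on 1 fragment with a ratio of 10.6 (1.51 to 461). The lowest metastasis library with PLX4720 (98 fragments) held fewer Cytip fragments than T1 with PLX4720 (143). The fitted log2 changes were -3.41 ± 0.22 in metastasis lines and 2.08 ± 0.40 in primary lines. The mean over all lines, -0.66, ranked 783 from the most lowered gene and hides both.

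**Figure D1:**
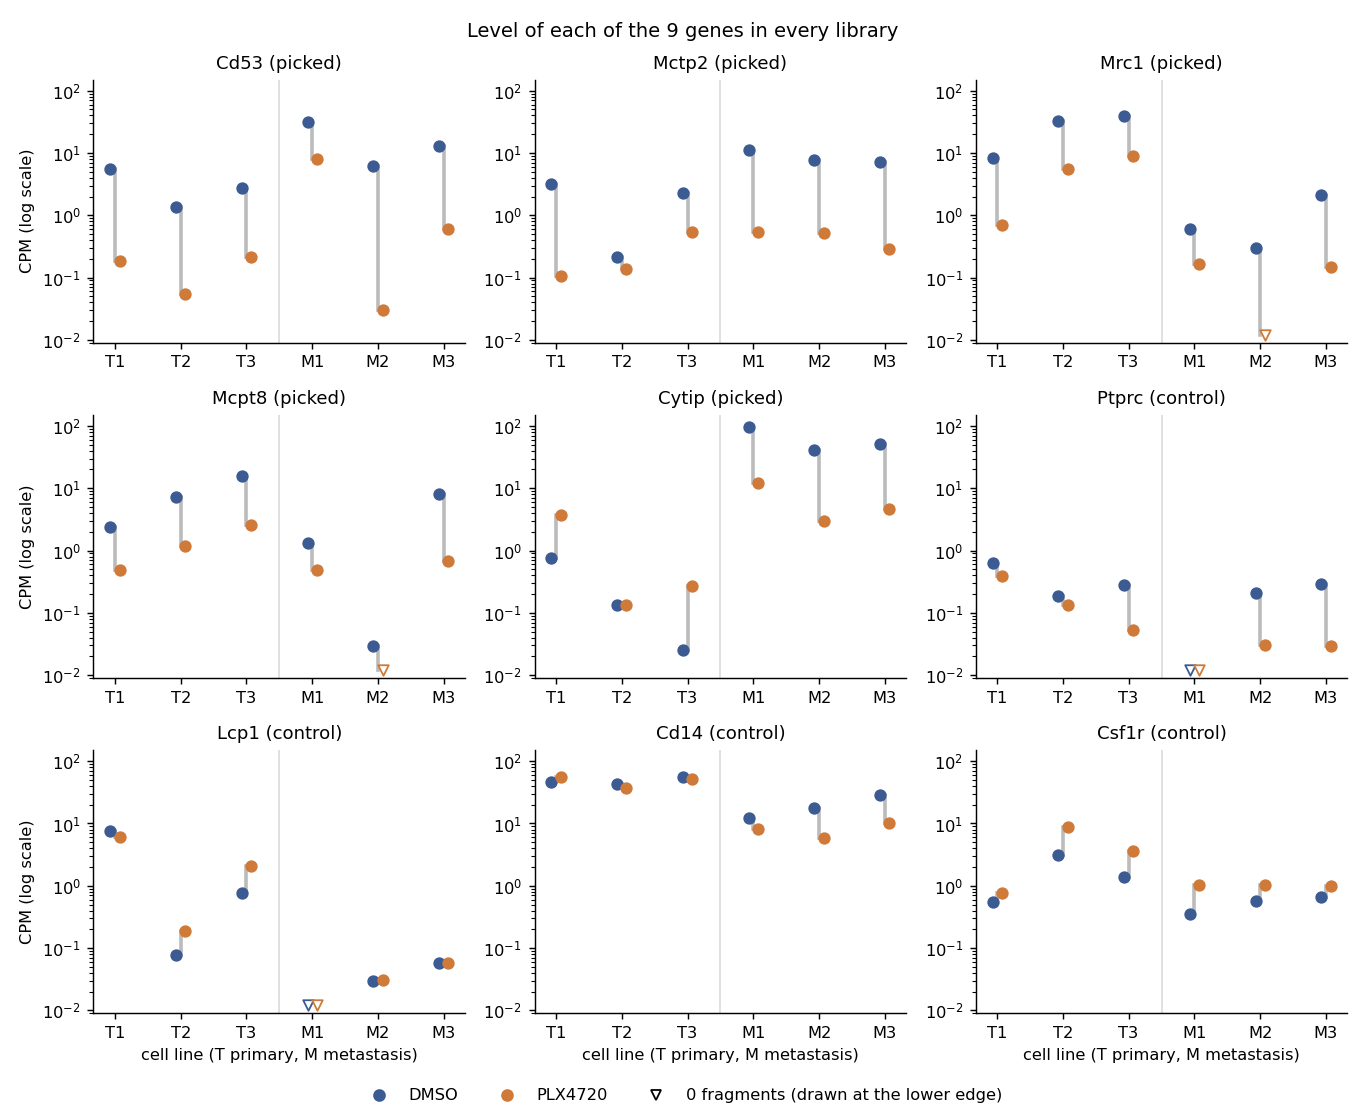
Level of each of the 9 genes in CPM on a log axis, by cell line, with DMSO in blue and PLX4720 in orange joined within a line. Each point is 1 library, and open triangles mark 0 fragments. Cd53 and Mrc1 drop in every line, as do Mctp2 outside T2 and Mcpt8 outside M2, where counts are too few to tell. Cytip drops in M1, M2 and M3 only. Csf1r is higher with PLX4720 in all 6 lines, though in T1 and M3 counting error does not exclude no change.

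Of the picked genes, Cd53, Mctp2, Mrc1 and Mcpt8 were lower with PLX4720 in CPM in 6 of 6 lines, beside 12.8% of all 16555 genes tested. That count includes Mcpt8 in M2, at 1 and 0 fragments, and Mctp2 in T2, at 8 and 5, where counting error does not exclude no change. Since they were picked for this, nothing is read from that count. The DMSO and PLX4720 ranges overlapped for each of the 5 over the 6 lines, because starting levels differed between lines. Per length, Cd53 and Cytip had the highest means of the 5 in metastasis lines with DMSO. They stood at 9.69 ± 7.45 and 9.42 ± 4.37 CPM per kb of exon (SD, n = 3), which do not differ beyond their spread. Mctp2, Mrc1 and Mcpt8 stood at 0.701 ± 0.172, 0.159 ± 0.156 and 3.73 ± 5.12 on that scale. The spread of Mcpt8 overlaps that of Cd53 and Cytip, and in M3 with DMSO it was the highest of the 5, at 9.57. In primary lines Mcpt8 was the highest of the 5, at 9.87 ± 7.94, followed by Mrc1 at 4.24 ± 2.58 and Cd53 at 1.85 ± 1.22, and neighbours in that order overlap.

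The 4 controls did not move as one. Over all 6 lines Csf1r rose and Ptprc and Cd14 fell by the test, while Lcp1 did not pass. Thus 1 control rose and 2 fell. Of all genes tested, 14.5% rose and 12.7% fell, 27.2% together. In primary lines 1 of the 4 passed (Csf1r), beside 8.23% of all genes, and in metastasis lines 2 (Ptprc and Cd14), beside 20.4%. DESeq2 called fewer, 2 of the 4 over all lines and 1 in metastasis lines, and also 1 in primary lines. The difference between sites passed in edgeR for 0 of the 4, beside 2.94% of all genes, with 1 of the 4 (Cd14) at an unadjusted p under 0.05 and called by DESeq2. The tests are edgeR's quasi-likelihood test with Benjamini-Hochberg adjustment over 16555 genes.

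Csf1r (chromosome 18, 61105572 to 61132149, plus strand) was higher in each line, from a low level. Csf1r had 20, 118, 55, 12, 19 and 23 fragments with DMSO and 29, 320, 136, 37, 34 and 34 with PLX4720 in T1, T2, T3, M1, M2 and M3. Such a rise in 6 of 6 lines was seen for 12.7% of all genes. Over the lines Csf1r rose by 1.08 ± 0.20 in log2 (edgeR adjusted p = 0.00532). In primary lines the rise was 1.22 (edgeR adjusted p = 0.0264, and 0.0634, 0.182 and 0.130 without T1, T2 and T3), and in metastasis lines the value was 0.94 (edgeR adjusted p = 0.0585). Csf1r and Hmgxb3 share 871 exon bases on opposite strands, and Hmgxb3 had 1533 to 2718 fragments per library, so fragments in that overlap cannot be told apart.

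Cd14 (chromosome 18, 36725074 to 36726736, minus strand) was the most abundant control in CPM, and fell in the metastasis lines. Cd14 had 1647, 1628 and 2194 fragments with DMSO in T1, T2 and T3, and 2100, 1378 and 1932 with PLX4720. In M1, M2 and M3 it had 405, 599 and 997 with DMSO and 302, 195 and 352 with PLX4720. Primary lines stood at 48.0 ± 6.47 CPM with DMSO and 48.0 ± 9.21 with PLX4720 (SD, n = 3), a log2 difference of -0.01 (edgeR adjusted p = 0.988). In metastasis lines Cd14 fell by 1.22 in log2, to 0.684, 0.332 and 0.354 of the DMSO level in M1, M2 and M3 (edgeR adjusted p = 0.00339). The test of the difference between sites gave -1.21 ± 0.27 (edgeR adjusted p = 0.0530), which did not pass, although it passed with DESeq2 (adjusted p = 0.00159) and without M1 (edgeR adjusted p = 0.00227).

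Of the broadest leukocyte genes of the set, Ptprc was at very low counts and Lcp1 was seen mainly in T1 and T3. Ptprc had 23, 7, 11, 0, 7 and 10 fragments with DMSO and 15, 5, 2, 0, 1 and 1 with PLX4720 in T1, T2, T3, M1, M2 and M3. No Ptprc library passed 0.640 CPM, and M1 had 0 fragments in both libraries, which allows up to 3 fragments. Over all lines Ptprc had a log2 change of -1.91 and passed (edgeR adjusted p = 0.0172), but not without M2 (0.0643) or M3 (0.0951). In metastasis lines the fall of 2.86 rests on 17 fragments with DMSO against 2 with PLX4720 (edgeR adjusted p = 0.0381, and 0.0586, 0.150 and 0.206 without T2, M2 and M3), and a fitted change at such counts depends on the prior count of the fit. Lcp1 had 272, 3, 31, 0, 1 and 2 fragments with DMSO and 229, 7, 79, 0, 1 and 2 with PLX4720. It was lower in T1 and higher in T3, with a change over all lines of 0.25 ± 0.76 in log2 (edgeR adjusted p = 0.851).

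The picked genes did not share their best lines with Ptprc and Lcp1. M1 had the most Cd53 (1051 fragments with DMSO) and the most Cytip (3254) and 0 fragments of both Ptprc and Lcp1 in both libraries. T1 had the most Lcp1 and Ptprc, while Mrc1 and Mcpt8 were highest in T3. Of the other controls, Cd14 was also highest in T3 with DMSO (2194 fragments), and Csf1r in T2 with PLX4720 (320).

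Other leukocyte markers were scarce. Over 7 marker lists (pan-leukocyte, macrophage, mast cell and basophil, neutrophil, T and NK cell, B and plasma cell, dendritic cell) that held 83 genes beside the 9, 20 had 0 fragments in every library and 60 stayed under 10 fragments in every library. Of 15 genes tested, 1 rose and 2 fell with PLX4720 over all lines, beside 14.5% and 12.7% of all genes. These were Zbtb46, a transcription factor of dendritic cells, at 0.56 (edgeR adjusted p = 0.0273), S100a8, a neutrophil calcium-binding protein, at -1.64 (0.0206), and Lck, a T cell kinase, at -0.97 (0.0389). S100a8 had at most 18 and Lck at most 20 fragments in any library, and both calls were lost without single lines (edgeR adjusted p up to 0.0764 for S100a8 and 0.24 for Lck).

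The pan-leukocyte list held 16 genes beside Cd53, Cytip, Ptprc and Lcp1. Of these, Vav1 and Tyrobp were at 0 in all 12 libraries, Cd52 reached at most 1 fragment and Laptm5 at most 3. Coro1a had 2 to 19 and Fermt3 15 to 60 fragments per library. Summed over the 16 genes, the level ran from 1.53 to 4.73 CPM in primary lines with DMSO and from 2.34 to 6.97 with PLX4720. In metastasis lines it ran from 2.17 to 3.13 CPM with DMSO and from 2.02 to 2.41 with PLX4720. The 4 genes tested had a median log2 change of 0.25, beside 0.03 over all genes. Over all lines 0 of the 4 passed in edgeR, beside 27.2% of all genes. None passed in DESeq2 or at an unadjusted p under 0.05. Cybb, a subunit of the phagocyte NADPH oxidase, had 48, 4 and 105 fragments with DMSO in T1, T2 and T3, 123, 20 and 197 with PLX4720 and 0 in the metastasis lines. It is among the 4 genes tested, but with those counts its change over all lines could not be estimated. Its fitted value still entered the median, and it could not pass over all lines. Cybb rose in primary lines by 1.28 (edgeR adjusted p = 0.0423, 0.122 to 0.244 without any 1 primary line and 0.068 with DESeq2). In metastasis lines Itgb2, the beta chain of leukocyte integrins, fell by 1.5 in log2 (edgeR adjusted p = 0.0327), from 56, 28 and 28 fragments to 31, 8 and 6, and was chosen after its values were seen. That call was lost without M2 (0.118) or M3 (0.107) and with DESeq2 (adjusted p = 0.0786).

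For macrophages, Adgre1 (the F4/80 antigen), the complement genes C1qa, C1qb and C1qc and the Kupffer cell genes Clec4f, Vsig4, Marco and Cd5l had 0 fragments in every library. Other macrophage markers were present at low counts: Cd68 had 35 to 116 fragments per library, and Mpeg1 and Cx3cr1 reached at most 77 and 35. The 16 macrophage markers beside Mrc1, Cd14 and Csf1r summed to 1.39 to 3.50 CPM in primary lines with DMSO and 1.51 to 3.42 with PLX4720. In metastasis lines they summed to 2.23 to 3.40 CPM with DMSO and 2.85 to 4.07 with PLX4720. Mrc1 alone stood at 8.40 to 39.6 CPM in the primary DMSO libraries. For mast cells and basophils, Cpa3, Fcer1a, Prss34 and Tpsb2 had 0 fragments everywhere, and 10 markers beside Mcpt8 summed to 1.74 to 2.67 CPM in primary lines with DMSO and 1.79 to 6.02 with PLX4720. Among those 10, Il4 had 21 to 73 fragments per library, and Mcpt4 and Cma1 reached at most 139 and 57. Of the 3 macrophage and 2 mast cell markers tested beside the 9, 0 passed over all lines in edgeR, beside 27.2% of all genes. None passed in DESeq2 or at an unadjusted p under 0.05.

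**Figure D2:**
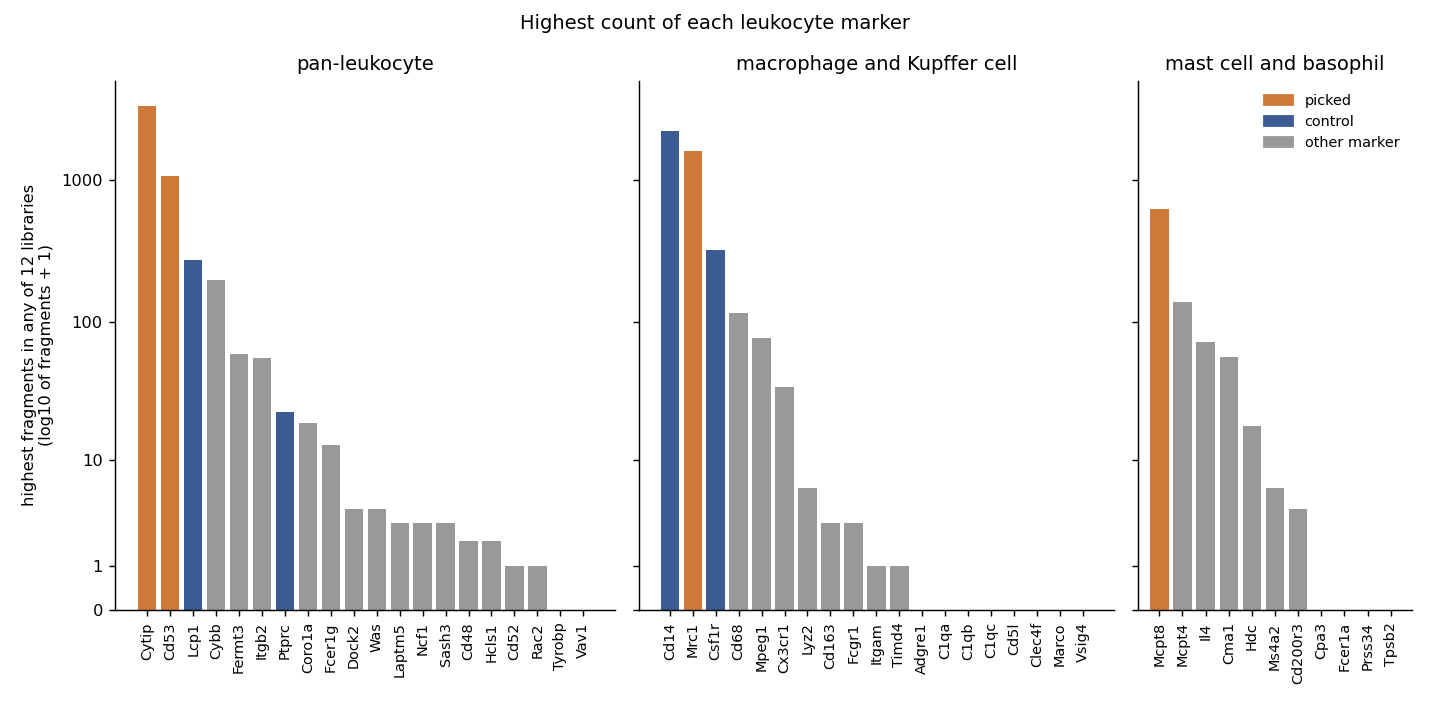
Highest fragment count of each marker in any of the 12 libraries, drawn as log10 of fragments + 1, for 3 leukocyte lists. Orange bars are picked genes, blue bars controls and grey bars other markers. Cytip, Cd53, Mrc1, Cd14 and Mcpt8 stand above their lists, in which Vav1, Adgre1, Cpa3 and others are at 0.

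Endothelial and fibroblast markers were read as well, since MRC1 is also known from liver endothelium. Stab1, a scavenger receptor of sinusoidal endothelium, rose by 1.35 (edgeR adjusted p = 0.0011) while Mrc1 went down, and it was highest in T1 with PLX4720 (1861 fragments). Tek, an angiopoietin receptor, had 2497 fragments in T1 with DMSO and 1343 with PLX4720 and at most 57 in any other line. Pecam1 and Cdh5, which define endothelium, reached at most 25 and 165 fragments. In primary lines, where Mrc1 was mainly seen, 1 of 6 endothelial markers tested rose and 1 fell. Of all genes, 8.23% were called there in either direction. The riser was Stab1, and Cdh5 was lower, at -1.69 in log2 (edgeR adjusted p = 0.0422). DESeq2 called 1 of the 6 markers. Cdh5 had 257 fragments over the 12 libraries, with 165 in 1 of them. Over all lines Cdh5 did not pass, at -1.45 (edgeR adjusted p = 0.0738). In the metastasis lines the fibroblast genes Acta2 and Col1a1 went up with PLX4720. Acta2 went from 5227, 23439 and 2323 fragments to 70846, 111661 and 56934 in M1, M2 and M3. Over all lines Acta2 rose by 2.78 (edgeR adjusted p = 0.002) and Col1a1 by 2.59 (0.000525). Whether these shifts had a part in the values of the 9 genes was not tested.

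Relatives of the picked genes moved in both directions. Of 22 other tetraspanins tested beside Cd53, 5 rose and 1 fell with PLX4720, beside 14.5% and 12.7% of all genes, with a median log2 change of -0.01 beside 0.03. Cd81, a broadly expressed tetraspanin, rose by 0.57 (edgeR adjusted p = 0.00117), and Cd37, a tetraspanin of B cells, had at most 1 fragment. Of the mannose receptor family, Pla2r1, a phospholipase A2 receptor, rose by 1.51 (0.00107) and Ly75, an antigen uptake receptor, by 0.26 (0.0393), while Mrc2 did not pass. Mrc2, a collagen uptake receptor, had 7954 to 14225 fragments in metastasis lines and at most 11 in primary lines, the opposite of Mrc1.

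For Mctp2, its closest relative Mctp1 fell by 1.08 in log2 (edgeR adjusted p = 0.00624), with 52, 19, 42, 160, 122 and 49 fragments with DMSO and 38, 6, 14, 73, 78 and 17 with PLX4720 in T1, T2, T3, M1, M2 and M3. Of 7 membrane C2-domain genes 1 fell and 2 rose (12.7% and 14.5% of all genes), the latter being the extended synaptotagmin Esyt1 (0.65, edgeR adjusted p = 0.000321) and Syt11 (0.79, 0.00292). In the protease locus of Mcpt8, 4 of 14 relatives were tested and 1 fell, beside 12.7% of all genes. This was Gzme, a granzyme, at -1.41 ± 0.32 (edgeR adjusted p = 0.0149, and 0.243 without M3), from 92, 286 and 191 fragments to 61, 186 and 89 in T1, T2 and T3, and from 4, 0 and 14 to 2, 0 and 2 in M1, M2 and M3. In primary lines Gzme gave -0.75 (edgeR adjusted p = 0.0660), and in metastasis lines -2.07 (0.0467) on those few fragments. Mcpt1, a mast cell protease, had 444, 1566 and 253 fragments with DMSO in T1, T2 and T3 and 783, 6551 and 250 with PLX4720, and did not pass.

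Among the cytohesin partners of Cytip, 4 of 7 genes tested fell over all lines and 0 rose, beside 12.7% and 14.5% of all genes. Their median log2 change was -0.29 beside 0.03 for all genes. In metastasis lines, where Cytip fell, 3 of the 7 fell and 0 rose, beside 20.4% of all genes called in either direction. Cyth4, the cytohesin of blood cells, fell by 2.05 in log2 (edgeR adjusted p = 0.00478, and 0.115 without M2). Its fragments were 651 and 168 in T3, 26 and 3 in M2 and at most 4 in the other lines. T3 held only 1 and 10 fragments of Cytip. Cyth2, Arf6 (the GTPase that cytohesins act on) and Grasp (a scaffold related to Cytip) fell by 0.31, 0.29 and 0.52 in log2 (edgeR adjusted p = 0.0193, 0.0113 and 0.0494). In metastasis lines Arf6 and Grasp did not pass (edgeR adjusted p = 0.0893 and 0.263).

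Partners of the controls moved both ways. Of 8 genes of lipopolysaccharide sensing around Cd14, 3 rose and 1 fell, beside 14.5% and 12.7% of all genes. Tlr2, a Toll-like receptor, rose by 1.66 ± 0.16 (edgeR adjusted p = 0.000272), and Lbp, which hands lipopolysaccharide to CD14, by 1.69 (0.0170, and 0.125 without M1), whereas Tlr4 did not pass at 0.04. For Csf1r, both ligands passed in opposite directions. Csf1 rose by 0.89 ± 0.12 (edgeR adjusted p = 0.00125) and Il34 fell by 0.89 ± 0.12 (0.00162). Csf1 was abundant in the metastasis lines, at 17163, 45690 and 20401 fragments with DMSO and 32700, 63699 and 43277 with PLX4720 in M1, M2 and M3. Beside Ptprc, the receptor phosphatase Ptpre fell by 0.83 (edgeR adjusted p = 0.0003), and Ptprcap, which binds CD45, did not pass at 0.04. Of the plastins, Pls1 fell by 2.86 on the log2 scale in metastasis lines (edgeR adjusted p = 1.17e-05) from 427, 40 and 602 to 67, 6 and 77 fragments in M1, M2 and M3, while Pls3 did not pass at 0.02 over all lines.

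**Figure D3:**
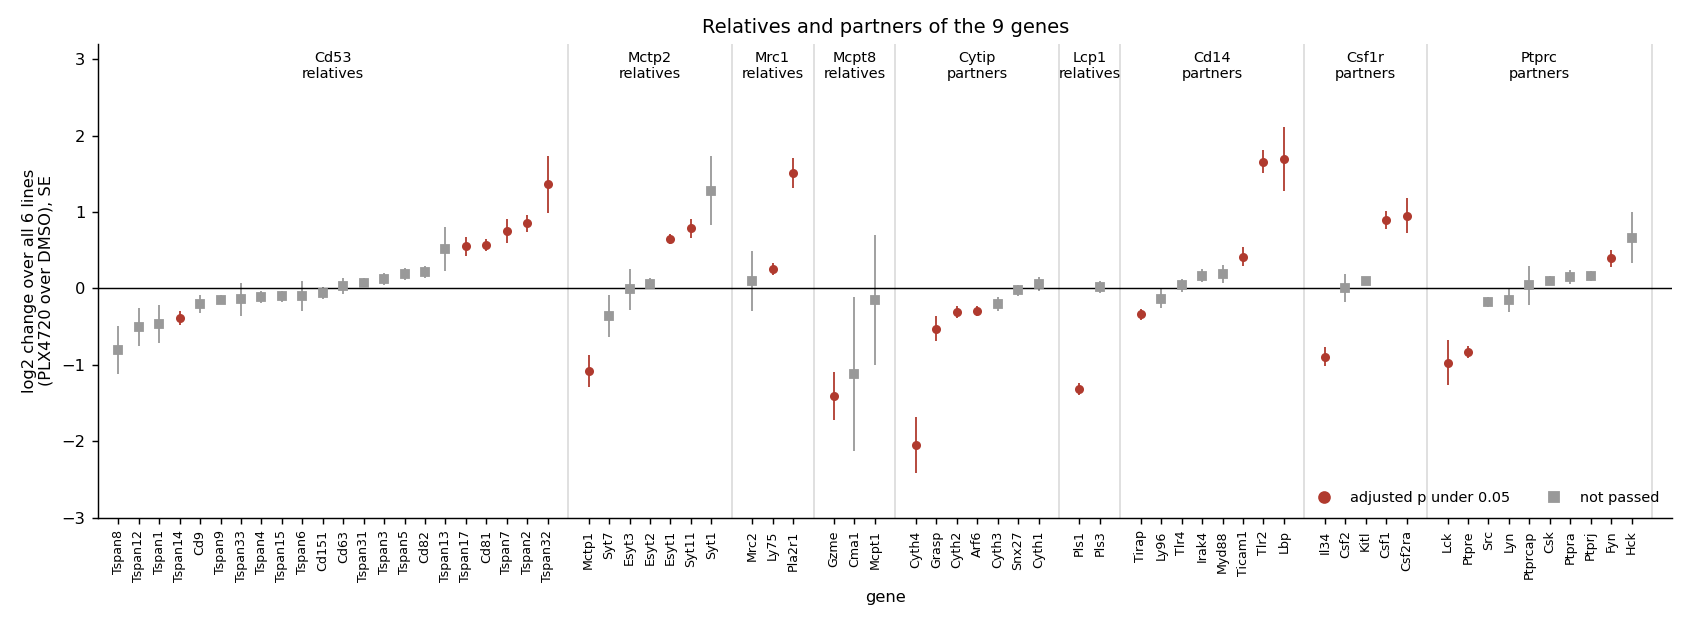
Fitted log2 change over all 6 lines (PLX4720 over DMSO) with its SE for relatives and partners of the 9 genes, grouped by gene, and without Mcpt2, which had 0 fragments in all 6 metastasis libraries. Red circles passed an edgeR adjusted p of 0.05 and grey squares did not. Cyth4 at -2.05 and Gzme at -1.41 are the lowest called values, and Lbp, Tlr2 and Pla2r1 the highest.

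Blood cell transcription factors were read because several of these genes have them as known regulators in leukocytes. Of 16 factors, 8 stayed under 10 fragments in every library, among them Spi1 (PU.1) at most 8 and Ikzf1 at most 1. Of 7 tested, 1 fell and 2 rose, beside 12.7% and 14.5% of all genes. Irf8, a factor of monocytes and dendritic cells, went from 245 to 14 fragments in T1 and from 156 to 16 in M2, and had at most 3 in the other 4 lines. Its fitted fall of 3.40 (edgeR adjusted p = 0.0109) was lost without T1 (0.454), without M2 (1) and with DESeq2 (0.679). Runx2 rose by 0.43 (edgeR adjusted p = 0.00839) and Cebpa by 0.99 (0.00236), and Runx1, at 693 to 2797 fragments, gave -0.28 (0.0728).

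Genes that ERK signalling drives were read beside the 9 in each line. Of 20 such genes 13 fell and 3 rose over all lines, beside 12.7% and 14.5% of all genes. The risers were Egr1, Epha4 and Spry1, at 1.62, 1.13 and 0.55 in log2 (edgeR adjusted p = 0.0371, 0.0110 and 0.00114). Only Etv4, Spry4 and Dusp6, which all fell over the lines, were followed by line. Etv4, an ETS factor, stood at 0.143, 0.214, 0.289, 0.382, 0.193 and 0.201 of its DMSO level in T1, T2, T3, M1, M2 and M3. Spry4, a feedback inhibitor, stood at 0.0551, 0.205, 0.553, 1.12, 0.307 and 0.276 in the same lines. Dusp6, a phosphatase that inactivates ERK, stood at 0.424, 0.549, 0.644, 0.424, 0.204 and 0.198. M1 had the weakest fall of Etv4 and no fall of Spry4, but for Dusp6 T2 and T3 fell less than M1. M1 also kept the largest share of its DMSO level for Cd53 (0.252) and, among metastasis lines, for Cytip (0.124). Its shares for Mrc1 (0.275, counting interval 0.0905 to 0.711) and Mcpt8 (0.367, 0.200 to 0.647) cannot be ranked against M2, which had 0 fragments of both with PLX4720. T1 had the strongest fall of Spry4 and, among primary lines, of Mctp2 and Mrc1. Mctp2 in M1, at 0.0493, did not follow that order. In T1, Mcpt8 stood at 0.207, beside 0.168 in T2 and 0.161 in T3, with overlapping counting intervals. Cytip was 4.97 times higher in T1. With 1 library per line and treatment these ratios have no replicate of their own.

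**Figure D4:**
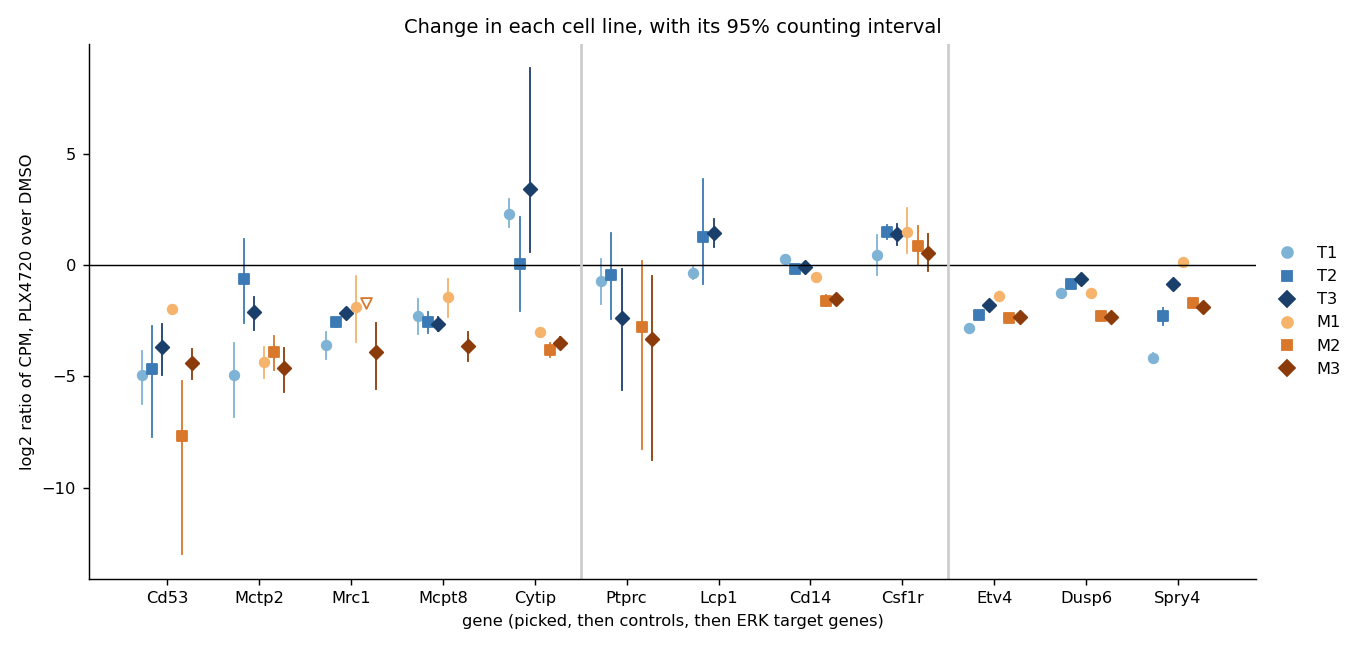
Log2 ratio of CPM with PLX4720 over DMSO in each line for the 5 picked genes, the 4 controls and 3 ERK target genes, with 95% counting intervals, which cover counting error only. The open triangle is the bound for Mrc1 in M2, and ratios with at most 3 fragments in both libraries are not drawn. M1 lies nearest to 0 among the lines for Cd53, Etv4 and Spry4, and T3 does for Dusp6.

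Levels also differed between lines of the 2 origins before any drug. The picked genes were chosen on these libraries, and Cytip and Mrc1 passed the filter on low counts through the site where they are high, so their site differences are given with no test. With DMSO, Cytip had 1399 fragments or more in each metastasis line and 27 or fewer in each primary line, a fitted log2 difference of 7.74 ± 1.12 (SE). Mrc1 was on the other side, at 10 to 74 fragments in metastasis lines and 302 to 1574 in primary lines, a difference of -4.73 ± 0.97. Cd53 and Mctp2 gave 2.41 ± 0.77 and 2.21 ± 0.88, and Mcpt8 -1.41 ± 1.47. Of the controls, Cd14 and Csf1r were tested and 0 of the 2 passed in edgeR, beside 12.1% of 14992 genes, at -1.28 and -1.65 (edgeR adjusted p = 0.0622 and 0.183). Both were under an unadjusted p of 0.05, and DESeq2 passed Cd14 (adjusted p = 0.00845).

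Under PLX4720, 1 of the same 2 controls passed, beside 13.5% of 15276 genes. Cd14 was lower in metastasis lines by 2.53 ± 0.31 in log2 (edgeR adjusted p = 0.00517), with 5.91 to 10.2 CPM against 37.5 to 54.8 CPM and no overlap. Mrc1 stood at 0 to 6 fragments in metastasis lines and 27 to 330 in primary lines. The Cytip difference shrank to 2.25 ± 1.28 in log2, with 98 to 438 fragments in metastasis lines and 5 to 143 in primary lines, which overlap.

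Likeness was read over log2(CPM + 1) across the 12 libraries. Pearson r was 0.857 between Cd53 and Mctp2, and Cytip stood at 0.748 with Cd53 and 0.724 with Mctp2. It was 0.831 between Mrc1 and Mcpt8, 0.766 between Mrc1 and the control Cd14, and -0.677 between Mrc1 and Cytip. Libraries of a line share their cells, and so do these r values, which are a description. The most like other gene to Cytip was Junos (r = 0.969), followed by Tmem74 (0.952). Sh2d5, among the 3 most like Mctp2 (r = 0.929), stood at a mean of 32.1 CPM with DMSO and 2.59 with PLX4720. Pilra, an inhibitory receptor of myeloid cells and the most like Mrc1 (r = 0.944), stood at 7.65 and 2.10 CPM. The most like Mcpt8 was Grpel1 (r = 0.894), whose mean level was 116 CPM with DMSO and 89.3 CPM with PLX4720.

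The genes next to the 9 on the chromosome were read as well. Of 36 coding neighbours, 22 were tested, and 3 rose and 3 fell with PLX4720, near the 14.5% and 12.7% of all genes. Beside Cd53, Lrif1 at 23344 bases and Dram2 at 184031 bases gave -0.05 and -0.02 in log2 (edgeR adjusted p = 0.690 and 0.814). Beside Mrc1, Stam fell by 0.27 (edgeR adjusted p = 0.00922) and Cacnb2 by 0.64 (0.00198), both far less than Mrc1. Beside Mctp2, the nearest tested gene, Rgma, lay 1068901 bases away and rose by 0.67 (edgeR adjusted p = 0.0377).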

How the data were processed

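The authors deposited 1 table of raw counts per library. Per the file headers, featureCounts 1.5.2 counted pairs with both ends mapped over exons of Ensembl release 84 on GRCm38. Per the labels' protocols the kit was stranded, but the recorded command holds no strand option. No source used here names the aligner. Of 47729 gene IDs, 47224 were matched to a symbol, and every row named a gene. The 9 genes and all lists were chosen with earlier results of these data known.

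Counts were analysed with edgeR 4.0.16 in R 4.3.3 (filterByExpr, TMM, quasi-likelihood test, Benjamini-Hochberg adjustment, threshold 0.05). For PLX4720 against DMSO, 1 fit of 12 libraries had the cell line as block and a treatment term per site, with 4 residual degrees of freedom. Sites were compared on 6 libraries of 1 treatment. The block comes from the line named in the labels: deviations of both libraries of a line from their group means correlated at 0.839 to 0.923. Named genes are the 9, their relatives and partners, the leading or defining marker genes, the 3 genes most like each by Pearson r and the nearest coding neighbours. Not every gene that this rule names is reported here. Some markers outside the rule are named too, such as those at 0 fragments. Libraries of a group differed by more than counting noise (chi-square per degree of freedom of 142 or more). CPM uses TMM-scaled totals. SEs are the fitted change over the root of F and can be too small at few fragments. Intervals are exact 95% and cover counting error only. DESeq2 1.42.0, its size factors, no filter, other blocks and leaving out each line were tried. The fits were tested on simulated data in which lines differed only by noise and by the changes put in. Those changes were in well-counted genes only, so genes at few fragments were not covered.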

Additional observations from a re-analysis of the deposited data

Results flagged for a closer look

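Cytip stood out because its level moved in opposite directions in lines of the 2 origins. It was lower with PLX4720 in M1, M2 and M3 and above its DMSO level in T1, T2 and T3, though T2 had 5 fragments in both libraries. The fitted difference, metastasis minus primary lines, was -5.49 on the log2 scale. Cytip was picked for its fall in these data, so this difference was not tested here, and the primary side rests on T1 (27 to 143 fragments) and T3 (1 to 10).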

How the results depend on the processing

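The PLX4720 changes of Cd53, Mctp2, Mrc1, Mcpt8 and Cytip kept direction under every alternative that gave a value. This held over all lines, in primary and in metastasis lines. In primary lines Cytip had a value in 10 alternatives, beside 11 for the other picked genes. They were picked on these same libraries, so this is a description. Differences between sites of the picked genes (metastasis minus primary) turned sign in 3 cases. Cd53 went from 0.85 to -0.66 without M1. Mrc1 went from -0.51 to 0.19 and Mcpt8 from -0.18 to 0.97, both without M3. Leaving out 1 line gave -0.66 to 1.38 for Cd53, -1.39 to 0.19 for Mrc1 and -1.07 to 0.97 for Mcpt8. Without the line as block ("no replicate block" against the paired fit) genes called went from 4496 to 18 over all lines, from 1362 to 1 in primary lines, from 3378 to 15 in metastasis lines and from 487 to 0 for the difference between sites, and no control gene kept its call. Replicate numbers are only names across sites (deviations correlated at -0.0982 to 0.012), and a block on them gave 1106 genes under DMSO in place of 1819 and 1398 under PLX4720 in place of 2061. DESeq2 called 921 genes for the difference between sites, 2974 under DMSO and 3163 under PLX4720. With no filter on low counts, 2052 genes were called in primary lines and 996 for the difference between sites. Fitted alone, the primary lines gave 2491 genes and the metastasis lines 2195. Leaving out 1 line gave 2417 to 4384 genes over all lines, 91 to 2252 in primary lines, 1891 to 3090 in metastasis lines, 122 to 798 for the difference between sites, 901 to 1595 under DMSO and 1097 to 1712 under PLX4720. The cause was not tested, apart from the fewer lines where 1 is left out. Depth limits Ptprc, Lcp1 and most markers, which have under 30 fragments in most libraries.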
